A study of Homo sapiens with 2 samples.

Results

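The HOX genes were described in single cells of 2 blood-generating heart-forming organoids (BG-HFOs), which are named 32.7 and 33.10 and were dissociated one by one on day 14 of differentiation. The members were 38 of the 36601 features of the count tables, chosen by their symbols: 10 genes of the HOXA cluster, 10 of HOXB, 9 of HOXC and 9 of HOXD. Both organoids were made from hES3 NKX2.5-eGFP, a human embryonic stem cell line with a green fluorescent reporter in the cardiac gene NKX2.5, embedded in Matrigel and patterned by WNT modulation in 2 phases and by factors that drive endothelial and blood fates. They share this genotype and treatment, so all comparisons are between kinds of cells within the organoids, the organoid is the replicate (n = 2), and a single cell line limits what they represent. Adjusted p-values rest on the spread between these organoids, pooled over all kinds of cells in a fit and moderated across genes. They do not reach beyond these organoids.

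HOX genes encode homeodomain transcription factors and lie in clusters in which gene order follows the order of expression along the head-to-tail axis. Genes with low numbers, at the 3′ end of a cluster, act in anterior regions and genes with high numbers in more posterior ones, and retinoic acid, WNT and the CDX factors open the clusters stepwise from the anterior end. In the heart field, anterior HOX genes mark the cells nearest to the venous pole, and in blood development HOX genes of the middle of the clusters are known regulators of progenitors. Here paralog groups 1 to 3 are called anterior, 4 to 8 central and 9 to 13 posterior.

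Cells were assigned to lineages by raw counts of unique molecular identifiers (UMIs) of 1 gene each, which are not HOX genes. The gates were CDH5, the endothelial cadherin, at 2 or more UMIs; PTPRC, the leukocyte antigen CD45, at 2; PF4, a megakaryocyte chemokine, at 20; HBZ, embryonic globin, at 100; MYH6, the atrial myosin heavy chain, at 5; COL3A1, a stromal collagen, at 10; and AFP, a product of endoderm, at 10. Cells that passed several gates, 1506 and 1792, and cells that passed none, 6379 and 7573, were kept apart. The gates held 2247 and 2156 (CDH5), 886 and 435 (PTPRC), 915 and 2615 (PF4), 638 and 1505 (HBZ), 1372 and 1440 (MYH6), 2671 and 2365 (COL3A1) and 178 and 12 (AFP) cells in organoids 32.7 and 33.10, the order used for every pair of values. Independent marker lists followed the labels: 7 cardiomyocyte genes summed to 22193 and 19364 UMIs per 1000000 UMIs of the gate (CPM) in the MYH6 gate, 6 endothelial genes to 3914 and 3584 in the CDH5 gate and 6 leukocyte genes to 3022 and 2883 in the PTPRC gate. The AFP gate had 7 foregut endoderm genes at 10180 and 13559 CPM. Several gates also held RNA from the marker lists of other cells. The AFP gate of organoid 32.7 had the cardiomyocyte list at 1094 CPM, mesenchyme at 614, erythroid at 566, endothelial at 471 and megakaryocyte at 361, against 82.6, 237, 227, 72.2 and 10.3 in organoid 33.10. The COL3A1 gate had the cardiomyocyte list at 1112 and 1135 CPM. The PF4 gate had the endothelial list at 1133 and 1106 CPM, the leukocyte list at 1070 and 1084 and the erythroid list at 4248 and 5030. The libraries held 191152562 and 233818881 UMIs in 16866 and 19948 barcodes, of which 16792 and 19893 were kept, and 100 barcode sequences occurred in both.

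Nearly all of the HOX signal came from 1 cluster. The members summed to 40256 UMIs (211 CPM) in organoid 32.7 and 33778 (146 CPM) in organoid 33.10, and HOXB2 to HOXB9 gave 98.4% and 99.1% of them. Divided by exonic length, the shares were 98.6% and 99.2%. This division is a description only, because UMIs of 3′ libraries count molecules and not length. The other 30 members together held 645 and 319 UMIs. HOXA6, HOXC11 and HOXD12 had 0 UMIs in both organoids and 15 more members had under 20 in all, too few for any comparison between gates.

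HOXB1 to HOXB9 lie on chromosome 17 of GRCh38 between 48528526 and 48633572, all transcribed from the minus strand. Their gene models overlap. HOXB3 (48548870 to 48604912) spans HOXB4 (48575507 to 48578350) and HOXB5 (48591257 to 48593779) and overlaps HOXB6 (48595751 to 48604992), while HOXB7 (48607232 to 48633572) spans HOXB8 (48611377 to 48615292) and HOXB9 (48621156 to 48626358). Reads in introns were counted, so the division of UMIs among HOXB3 to HOXB6 and among HOXB7 to HOXB9 is uncertain. HOXB1 (48528526 to 48531011) and HOXB2 (48540894 to 48545109) overlap no other member.

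Outside HOXB2 to HOXB9, the 3 members with enough counts for the test between the 7 gates were HOXB1, HOXC4 and HOXD1. The 250 bases before the start of each are shown because each was called between gates (RefSeq, GRCh38.p14; 20 of the 38 members had a promoter entry). The HOXC4 window, chr12:54016638-54016887 (+), is also that of HOXC5, the HOXB1 window is chr17:48531012-48531261 (-) and the HOXD1 window chr2:176188418-176188667 (+). Capitals mark matches to TGATNNAT, the joint motif of HOX and PBX proteins, TGACAG, a motif of MEIS and PKNOX proteins, or TAATTA, a general homeodomain motif, searched on both strands.
HOXB1: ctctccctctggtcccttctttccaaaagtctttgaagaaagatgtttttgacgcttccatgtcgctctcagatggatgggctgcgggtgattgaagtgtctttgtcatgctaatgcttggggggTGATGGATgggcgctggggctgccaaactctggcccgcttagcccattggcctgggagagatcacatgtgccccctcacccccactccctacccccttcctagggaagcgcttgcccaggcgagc
HOXC4: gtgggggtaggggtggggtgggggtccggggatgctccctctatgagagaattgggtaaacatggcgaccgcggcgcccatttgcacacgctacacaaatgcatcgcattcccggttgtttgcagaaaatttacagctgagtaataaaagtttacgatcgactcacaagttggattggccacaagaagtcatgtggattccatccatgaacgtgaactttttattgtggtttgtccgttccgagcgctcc
HOXD1: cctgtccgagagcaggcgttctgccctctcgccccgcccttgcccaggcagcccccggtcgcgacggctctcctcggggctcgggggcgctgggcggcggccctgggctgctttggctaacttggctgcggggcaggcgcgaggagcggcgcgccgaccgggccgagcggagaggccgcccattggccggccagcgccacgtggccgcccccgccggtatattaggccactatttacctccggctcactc
The HOXB1 window held 1 match, to TGATNNAT at base 126 counted from its 5′ end, and the others held none. Among 35116 promoters of the same length 6.47% held TGATNNAT, 13.03% TGACAG and 4.35% TAATTA. The HOXD1 window was 74.8% G or C, against 57.2% for HOXB1 and 50.8% for HOXC4.

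**Figure D1:**
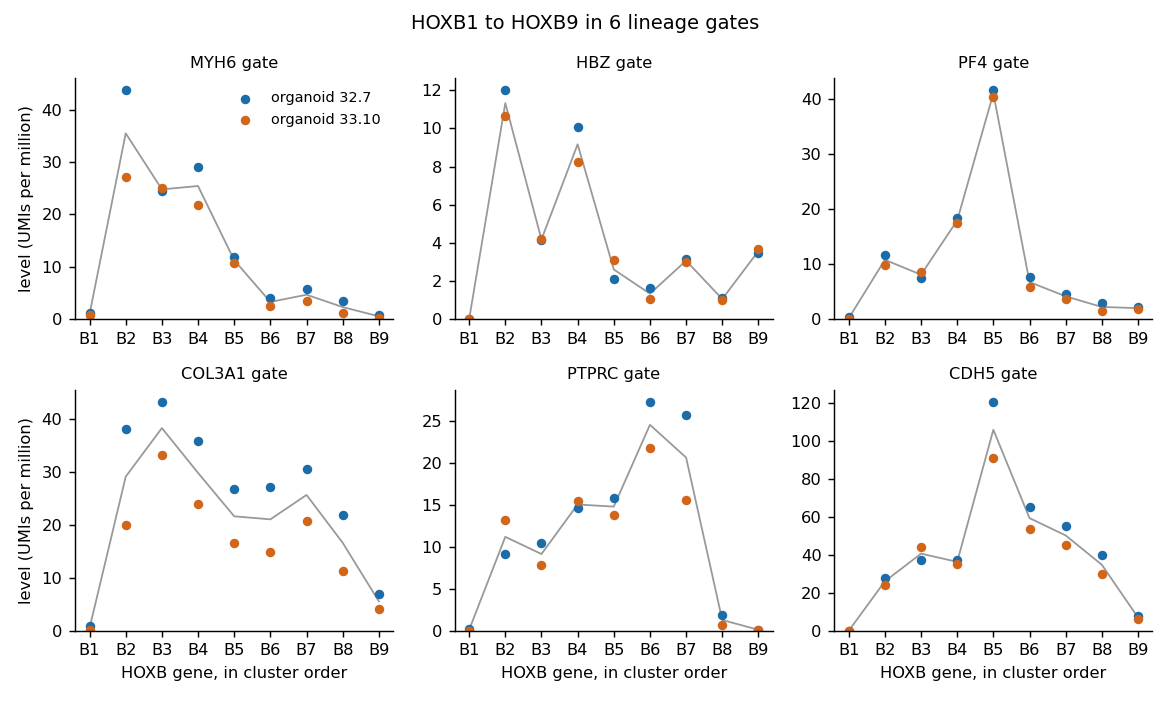
Levels of HOXB1 to HOXB9 in 6 gates, in CPM of each gate and organoid (points; the line joins the means of both organoids), with a separate vertical axis in each panel. The level is highest at HOXB2 to HOXB4 in the MYH6 gate, whereas the CDH5 gate has HOXB5 at 121 and 91.0 CPM and the PTPRC gate has almost no HOXB8 and HOXB9.

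The summed HOX level was highest in endothelial and lowest in erythroid cells. It was 396 and 331 CPM in the CDH5 gate, 238 and 148 in COL3A1, 125 and 93.1 in MYH6, 106 and 88.5 in PTPRC, 97.4 and 89.6 in PF4, 91.7 and 10.3 in AFP and 38.1 and 35.2 in HBZ. The endothelial values lay above and the HBZ values below those of the other gates apart from AFP, which had 12 cells in organoid 33.10, while the MYH6, PTPRC and PF4 ranges overlapped. Organoid 32.7 was the higher one in all 7 gates. The CDH5 level was 9.90 ± 0.69 times that of HBZ in CPM (SD, n = 2 organoids). Removing 10% of each gate's UMIs as free RNA with the make-up of the whole library gave a ratio of 16.0. Keeping cells of several gates gave 5.93. The CPM are not scaled between gates, unlike the fitted fold changes below. For HOXB2 to HOXB9 in HBZ, PF4 and PTPRC those fold changes against CDH5 are smaller than the ratios of mean CPM. Percentages of CDH5 levels given below are of CPM and so differ from the fold changes beside them.

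The positional make-up also differed. Anterior genes gave 55.6% (exact 95% binomial interval 53.2 to 57.9) and 57.0% (54.6 to 59.4) of HOX UMIs in the MYH6 gate, 42.4% (37.8 to 47.2) and 42.4% (38.8 to 46.1) in HBZ, 35.0% (34.1 to 36.0) and 36.2% (34.9 to 37.5) in COL3A1, 19.02% (17.2 to 20.9) and 23.8% (20.8 to 27.0) in PTPRC, 20.2% (17.6 to 23.0) and 20.8% (19.1 to 22.5) in PF4 and 17.3% (16.6 to 17.9) and 20.9% (20.1 to 21.8) in CDH5. Among the gates listed, the first 3 are thus apart from one another and from the rest, whereas PTPRC, PF4 and CDH5 overlap. The AFP gate is left out of these shares and of the mean paralog numbers. It had 147 and 2 HOX UMIs, of which 51 and 1 were anterior. Posterior genes gave 9.56% (7.002 to 12.7) and 10.4% (8.31 to 12.9) in HBZ, 3.79% (3.41 to 4.201) and 3.36% (2.89 to 3.87) in COL3A1 and at most 2.43% in MYH6, PTPRC, PF4 and CDH5. Intervals cover counting error only. The mean paralog number of HOXB1 to HOXB9, weighted by UMIs, was 3.49 ± 0.035 in MYH6, 4.27 ± 0.070 in HBZ, 4.60 ± 0.055 in PF4, 4.72 ± 0.036 in COL3A1, 5.01 ± 0.26 in PTPRC and 5.26 ± 0.10 in CDH5 (SD, n = 2). The shares are of UMIs and are not corrected for gene length, which is the same in every gate.

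**Figure D2:**
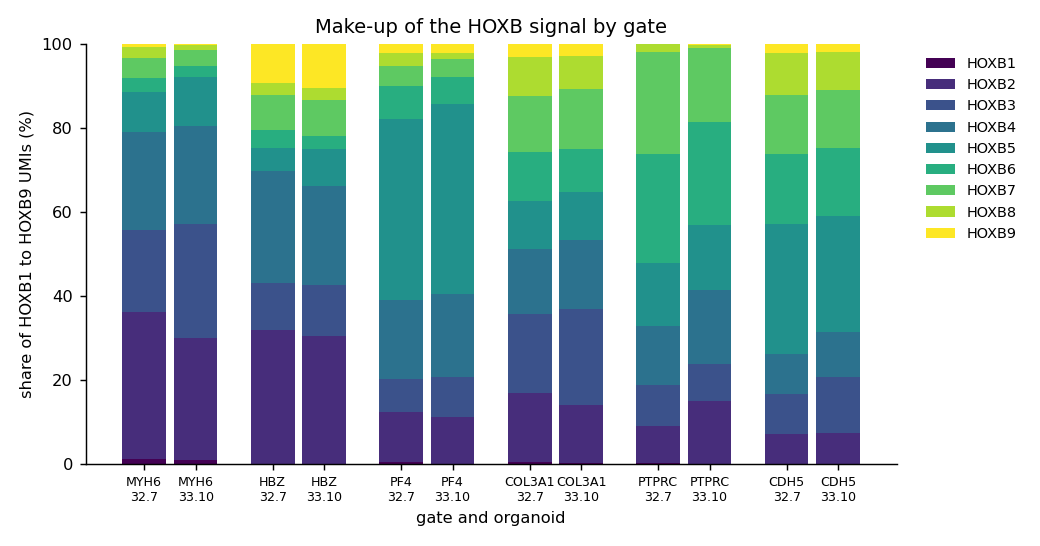
Share of each gene among HOXB1 to HOXB9 UMIs (vertical axis, percent) for 6 gates and both organoids (1 bar each), stacked from HOXB1 at the bottom to HOXB9 at the top. HOXB5 takes 43.0% and 45.3% in the PF4 gate and HOXB9 9.21% and 10.5% in the HBZ gate.

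Cardiomyocytes of the MYH6 gate had an anterior HOXB profile. HOXB2, which patterns the hindbrain and anterior mesoderm, was at 43.8 and 27.2 CPM there and at 28.04 and 24.1 in the endothelial CDH5 gate. These ranges overlapped and the difference did not pass the test (log2 fold change CDH5 over MYH6 -0.43, SE 0.31, adjusted p = 0.253). HOXB3 was at 24.4 and 25.1 CPM in MYH6 and 37.1 and 44.1 in CDH5, and was higher in CDH5 (0.72, SE 0.20, adjusted p = 0.00785). HOXB4, a regulator of blood progenitors, was at 29.1 and 21.8 against 37.4 and 35.2 CPM (0.52, SE 0.24, adjusted p = 0.0766, and 0.00556 with the organoid as a replicate block).

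The differences from HOXB5 to HOXB9 were each above 3 log2 units. HOXB5 was at 11.8 and 10.7 CPM in the MYH6 gate and at 121 and 91.0 in CDH5, a log2 fold change of 3.25 (SE 0.28, adjusted p = 8.24e-07). HOXB6 was at 4.13 and 2.45 against 65.2 and 53.5 CPM (4.21, SE 0.38, adjusted p = 1.05e-06). HOXB7 was at 5.80 and 3.53 against 55.05 and 45.4 CPM (3.46, SE 0.34, adjusted p = 2.35e-06). HOXB8 was at 3.48 and 1.14 against 39.7 and 29.9 CPM (3.97, SE 0.49, adjusted p = 1.89e-05) and HOXB9 at 0.798 and 0.284 against 8.02 and 6.05 (3.76, SE 0.42, adjusted p = 7.94e-06). Of the 38 members 11 passed the filter on low counts and 27 did not. 8 were called between CDH5 and MYH6, 7 of them higher in CDH5, beside 55.4% of all 21806 genes tested in either direction, 27.9% higher and 27.5% lower. The median log2 fold change of HOXB2 to HOXB9 was 3.35, against 0.0062 over all genes. The endothelial marker list stood at 7.92% and 7.02% of its CDH5-gate level in the MYH6 gate and HOXB5 to HOXB9 at 3.81% to 11.7%, while HOXB2 was at 156% and 113%. The part of endothelial RNA in the low MYH6 values was not tested.

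HOXB1, the most anterior HOXB gene and a marker of the posterior heart field, was the one called member higher in the MYH6 gate, with 17 and 13 UMIs (1.23 and 0.74 CPM) against 1 and 0 in CDH5. The ratio of levels was 57.8 (counting interval 9.60 to 2357; adjusted p = 0.0131, and 0.0659 with the gate thresholds doubled).

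The stromal COL3A1 gate had HOXB2 to HOXB8 between 11.4 and 43.3 CPM. Against MYH6, 7 members were higher and none lower, beside 37.2% of genes called in either direction, 18.2% higher and 19.0% lower, at a median for HOXB2 to HOXB9 of 1.62 (all genes -0.023). HOXB6 was at 27.3 and 14.9 CPM (log2 fold change over MYH6 2.61, SE 0.37, adjusted p = 0.000124). HOXB7 was at 30.6 and 20.8 against 5.80 and 3.53 CPM (2.39, SE 0.33, adjusted p = 0.000111). HOXB8 was at 21.9 and 11.4 against 3.48 and 1.14 CPM (2.81, SE 0.49, adjusted p = 0.000587) and HOXB9 at 7.04 and 4.11 CPM against 0.80 and 0.28 (3.32, SE 0.43, adjusted p = 5.41e-05). HOXB2 and HOXB4 overlapped between these gates and were not called. HOXB3 (0.54, adjusted p = 0.0489) lost its call with DESeq2 and with cells of several gates kept, the latter also ending that of HOXB5 (0.86, adjusted p = 0.0254).

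Stromal and endothelial cells differed in the middle of the cluster. Between COL3A1 and CDH5, HOXB2 (38.2 and 20.1 against 28.04 and 24.1 CPM), HOXB3, HOXB4 and HOXB9 overlapped and did not pass the test. With the replicate block HOXB4 was lower in COL3A1 (adjusted p = 0.0198). HOXB5 was at 26.7 and 16.5 CPM in COL3A1 and fell by 2.39 on the log2 scale (SE 0.26, adjusted p = 8.66e-06), and HOXB6 fell by 1.59 (SE 0.31, adjusted p = 0.000877). HOXB7 was at 30.6 and 20.8 CPM (log2 fold change -1.07, SE 0.29, adjusted p = 0.00759) and HOXB8 at 21.9 and 11.4 (-1.16, SE 0.40, adjusted p = 0.0270, lost under 4 of 9 alternatives). In all, 7 members were called, 2 higher and 5 lower in COL3A1, beside 49.2% of all genes, 24.4% higher and 24.9% lower. For every 1 HOXB9 UMI there were 15.1 and 15.0 HOXB5 UMIs in the CDH5 gate and 3.80 and 4.03 in the COL3A1 gate. The endothelial list stood at 13.9% and 13.8% of its CDH5 level in COL3A1. HOXB5 stood at 22.2% and 18.2% and HOXB6 to HOXB8 at 27.8% to 55.6%. The part of endothelial RNA in these COL3A1 values was not tested.

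**Figure D3:**
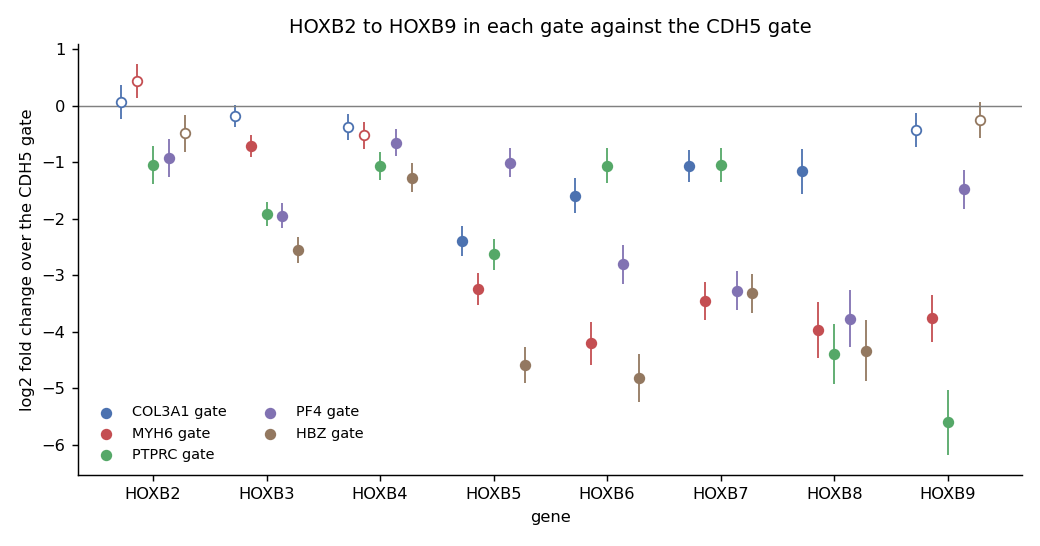
Log2 fold change of HOXB2 to HOXB9 in 5 gates against the CDH5 gate (vertical axis; 0 is the CDH5 level), with bars of 1 standard error from edgeR; filled points passed adjusted p under 0.05 and open points did not. HOXB2 in the COL3A1, MYH6 and HBZ gates and HOXB9 in the COL3A1 and HBZ gates lie near 0, whereas HOXB5, HOXB6 and HOXB8 reach -4.58, -4.81 and -4.33 in HBZ.

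Most HOXB genes were lower in the blood gates than in endothelium. The blood gates were each compared with CDH5 and not with one another, and these comparisons share the CDH5 samples. In the leukocyte gate PTPRC all of HOXB2 to HOXB9 were lower, 9 members in all with HOXD1, beside 50.6% of all genes, 24.5% higher and 26.1% lower, and the median was -1.50 (all genes -0.052). HOXB2 was at 9.21 and 13.2 CPM and HOXB4 at 14.7 and 15.4, which are 32.9% and 54.8% and 39.3% and 43.8% of their CDH5 levels (log2 fold changes -1.05 and -1.07, adjusted p = 0.0182 and 0.00266). The HOXB2 call was lost with gate thresholds doubled and without the deepest 10% of cells. HOXB3 was at 10.4 and 7.89 CPM (-1.92, SE 0.22, adjusted p = 7.89e-06) and HOXB5 at 15.8 and 13.8 (-2.63, SE 0.28, adjusted p = 4.36e-06). HOXB6 was at 27.3 and 21.8 CPM (log2 fold change -1.06, SE 0.31, adjusted p = 0.0123) and HOXB7 at 25.8 and 15.5 (-1.05, SE 0.30, adjusted p = 0.00970, 0.0540 without the deepest 10% of cells). HOXB8, whose forced expression holds myeloid progenitors in an undifferentiated state, was at 1.87 and 0.71 CPM (-4.39, SE 0.54, adjusted p = 1.59e-05). HOXB9 had 2 and 1 UMIs, so its CDH5 level was 59.4 times higher (counting interval 20.2 to 289). Against their CDH5 levels HOXB8 stood at 4.70% and 2.36% and HOXB9 at 1.501% and 1.95%, below the endothelial list at 7.53% and 7.88%, while HOXB6 stood at 41.9% and 40.7%. The part of RNA from endothelial or other cells in these PTPRC values was not tested. The share of HOXB UMIs from HOXB6 was 25.9% and 24.6% in PTPRC against 16.7% and 16.3% in CDH5.

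In the megakaryocyte gate PF4, HOXB5 was the most counted HOXB gene. It was at 41.7 and 40.4 CPM, below CDH5 (log2 fold change -1.01, SE 0.26, adjusted p = 0.00487), and gave 43.0% and 45.3% of HOXB UMIs, against 30.9% and 27.6% in CDH5 and 5.62% to 15.6% in the HBZ, MYH6, COL3A1 and PTPRC gates. HOXB2 was at 11.7 and 9.86 CPM and HOXB4 at 18.4 and 17.5, which are 41.8% and 41.0% and 49.2% and 49.8% of their CDH5 levels (-0.93 and -0.66, adjusted p = 0.0302 and 0.0355, both lost with DESeq2). HOXB3 was at 7.52 and 8.66 CPM (-1.95, SE 0.21, adjusted p = 6.21e-06) and HOXB9 at 2.15 and 1.86 (-1.48, SE 0.35, adjusted p = 0.00294). HOXB6 was at 7.63 and 5.88 CPM (-2.81, SE 0.35, adjusted p = 1.69e-05), HOXB7 at 4.62 and 3.67 (-3.28, SE 0.34, adjusted p = 3.99e-06) and HOXB8 at 3.01 and 1.43 (-3.76, SE 0.50, adjusted p = 3.33e-05). Again 9 members were lower and none higher, beside 52.9% of all genes, 27.6% higher and 25.3% lower. The endothelial list was at 28.9% and 30.8% of its CDH5 level in this gate, with PECAM1, which megakaryocytes also make, at 238 and 245 CPM and KDR, an endothelial receptor, at 80.6 and 112. HOXB5 stood at 34.5% and 44.4%, near that figure, and HOXB6 to HOXB8 at 4.79% to 11.7%, below it. Because megakaryocytes make PECAM1, the endothelial list does not measure endothelial RNA alone in this gate. How much of the list megakaryocytes make themselves was not tested. The part of endothelial, leukocyte or erythroid RNA in the PF4 values, that of HOXB5 included, was not tested either.

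In the erythroid gate HBZ, HOXB2 and HOXB9 were the members of the HOXB2 to HOXB9 row that were not called. HOXB2 was at 12.0 and 10.6 CPM (log2 fold change over CDH5 -0.49, SE 0.32, adjusted p = 0.225) and HOXB9 at 3.47 and 3.67 (-0.26, SE 0.32, adjusted p = 0.528). In CPM both lay below CDH5 without overlap. Fold changes are fitted on TMM-scaled totals. In this gate, as in PTPRC and PF4, they are smaller than the ratios of mean CPM to CDH5 for all of HOXB2 to HOXB9. HOXB3 was at 4.146 and 4.203 CPM (-2.56, SE 0.23, adjusted p = 8.51e-07), HOXB4 at 10.1 and 8.26 (-1.27, SE 0.25, adjusted p = 0.000762) and HOXB7 at 3.13 and 2.99 (-3.32, SE 0.35, adjusted p = 3.70e-06). HOXB5 was at 2.12 and 3.09 CPM (-4.58, SE 0.33, adjusted p = 1.11e-07), HOXB6 at 1.61 and 1.06 (-4.81, SE 0.42, adjusted p = 7.05e-07) and HOXB8 at 1.10 and 1.014 (-4.33, SE 0.54, adjusted p = 1.65e-05). 7 members were lower and none higher, beside 55.6% of all genes, 28.6% higher and 27.0% lower. HOXB5, HOXB6 and HOXB8 stood at 1.75% to 3.40% of their CDH5 level, below the endothelial list at 4.51% and 5.24%. HOXB2 and HOXB9 stood above that list, at 42.9% to 60.7%. The part of RNA from endothelial or other cells in these HBZ values was not tested. For every 1 HOXB9 UMI the HBZ gate had 0.61 and 0.84 HOXB5 UMIs, against 15.1 and 15.0 in CDH5.

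The AFP gate rested on 178 and 12 cells, with 147 and 2 HOX UMIs, and the part of the other cell types' markers given above in these values was not tested. HOXB3 was at 21.2 and 5.16 CPM against 43.3 and 33.3 in COL3A1 (log2 fold change -0.95, SE 0.32, adjusted p = 0.0569) and HOXB9 had 1 UMI. No member was called (5 had an unadjusted p under 0.05), beside 17.0% of all genes, 8.77% higher and 8.19% lower. The replicate block called 3 of 11 members, HOXB4, HOXB7 and HOXB9 (adjusted p = 0.0198, 0.00414 and 0.0175), beside 4007 of 21806 genes. DESeq2 called 4 of 11, beside 4026 of 21806 genes. CDX2, a caudal regulator of HOX clusters and of gut, was at 30.6 and 15.5 CPM in this gate and at 0.38 and 0 in COL3A1 (adjusted p = 0.000340). The posterior members held 1 UMI there.

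HOXB levels also differed within the stromal gate. Stromal cells with WT1 or TBX18, markers of proepicardium and septum transversum, were compared with cells high in LUM, a matrix proteoglycan of fibroblasts, with neither marker. Missed UMIs of WT1 or TBX18 count as absence here. In all, 8 of the 13 tested members were lower in the WT1- or TBX18-positive cells (750 and 841) than in the LUM-high cells (611 and 159). None was higher, beside 4.80% of all 20689 genes tested that were called, 2.29% higher and 2.52% lower. The mesenchyme list was at 2692 and 2223 CPM in the former and 4799 and 3832 in the latter, and its part in the HOXB values was not tested. That list includes LUM, the gene that defines the LUM-high cells, so its higher sum there was partly fixed by the gate. HOXB5 was at 53.4 and 41.9 CPM in LUM-high cells and at 17.9 and 13.4 in the WT1- or TBX18-positive cells (log2 fold change -1.79, SE 0.27, adjusted p = 0.00113). HOXB8 was at 43.9 and 34.5 against 14.5 and 7.88 CPM (-2.00, SE 0.39, adjusted p = 0.00751) and HOXB3 at 73.5 and 72.7 against 34.8 and 33.0 (-1.26, SE 0.19, adjusted p = 0.00121). HOXB7 did not pass the test at 47.7 and 33.1 against 26.9 and 19.3 CPM (-1.01, SE 0.33, adjusted p = 0.0934, and 0.00585 with the replicate block). HOXB2 was at 75.1 and 39.6 against 23.5 and 15.4 CPM (-1.78, SE 0.33, adjusted p = 0.00520), HOXB4 at 61.7 and 58.9 against 28.1 and 20.8 (-1.46, SE 0.23, adjusted p = 0.00140) and HOXB6 at 49.4 and 33.6 against 18.9 and 13.4 (-1.57, SE 0.31, adjusted p = 0.00753). HOXB9 was at 10.7 and 10.1 against 4.97 and 3.59 CPM (-1.45, SE 0.34, adjusted p = 0.0208), a call lost under 4 of 9 alternatives. The weighted paralog number was 4.73 ± 0.11 in WT1- or TBX18-positive and 4.72 ± 0.049 in LUM-high cells (SD, n = 2). The eighth call, HOXB1, rests on 1 library: LUM-high cells had 33 UMIs in organoid 32.7 and 0 in 33.10, and the other cells 0 in both.

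The leukocyte gate was divided by other markers. A cell whose UMI of a marker was missed counts as lacking it, so the classes are mixed. MYB-positive cells without C1QA or CD14 (216 and 108 cells; MYB marks progenitors) were compared with C1QA- or CD14-positive cells without MYB (450 and 230; macrophages and monocytes carry these genes). HOXB6 was at 12.5 and 11.2 CPM in the MYB-positive cells and 41.0 and 32.2 in the others (log2 fold change -1.67, SE 0.35, adjusted p = 0.00249), and HOXB7 at 8.66 and 2.89 against 41.4 and 27.0 (-2.46, SE 0.42, adjusted p = 0.000459). HOXB5 was at 8.66 and 10.8 against 20.9 and 16.5 CPM (-1.04, SE 0.33, adjusted p = 0.0362), a call lost under 4 of 9 alternatives. HOXB2 and HOXB3 overlapped, and HOXB4 was at 17.5 and 19.5 against 14.3 and 11.8 CPM without passing the test (0.42, SE 0.27, adjusted p = 0.309). Thus 3 of the 13 tested members were lower in MYB-positive cells and none higher, beside 20.6% of all genes, 8.56% higher and 12.0% lower, so their number was near the share over all genes. The leukocyte list was at 1740 and 1632 CPM in MYB-positive and 4078 and 4110 in C1QA- or CD14-positive cells, and the erythroid list at 63.9 and 534 against 84.9 and 127. The part of these lists in the HOXB values was not tested. With the replicate block HOXB8 was also called (adjusted p = 0.0442). The weighted paralog number was 4.39 ± 0.31 in MYB-positive and 5.36 ± 0.15 in C1QA- or CD14-positive cells (SD, n = 2).

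**Figure D4:**
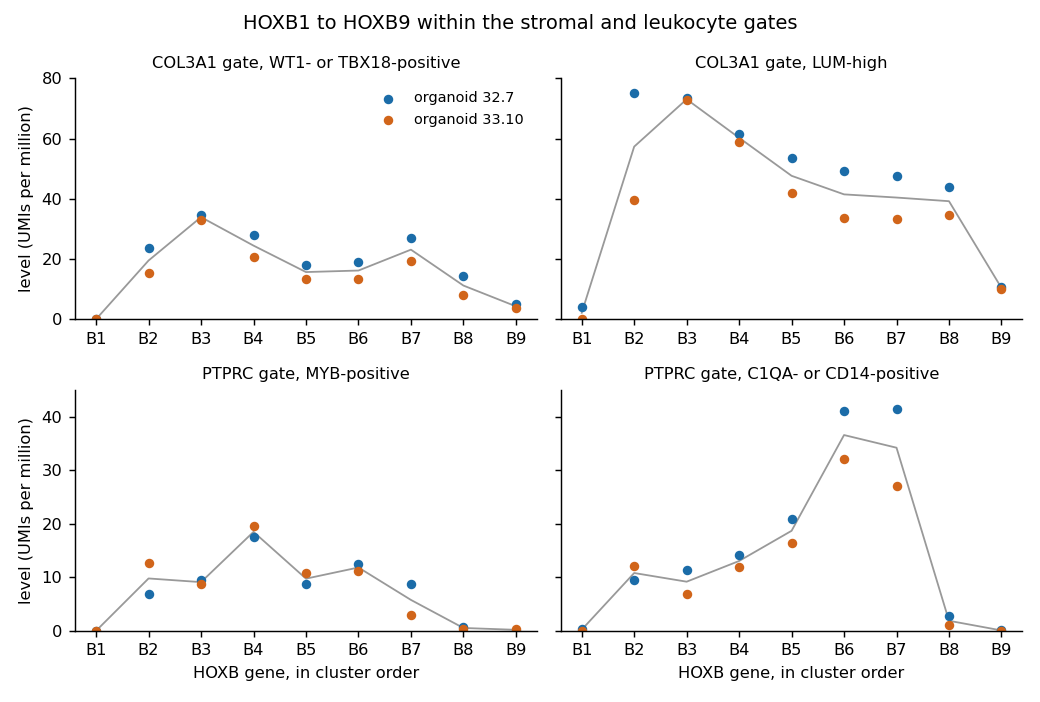
Levels of HOXB1 to HOXB9 (CPM; points are organoids, lines their means) in parts of the COL3A1 gate (top) and of the PTPRC gate (bottom), with 1 vertical axis per row. LUM-high cells lie above WT1- or TBX18-positive cells from HOXB2 to HOXB9, and C1QA- or CD14-positive cells lie above MYB-positive ones at HOXB5, HOXB6 and HOXB7.

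Endothelial cells with a UMI of NR2F2, a venous transcription factor, (700 and 674) were compared with those with none (1547 and 1482). A missed UMI puts a cell in the second class, so that class is mixed, which can shrink a difference. HOXB9 was at 4.96 and 4.66 against 9.49 and 6.75 CPM (log2 fold change -0.88, SE 0.31, adjusted p = 0.115) and HOXB8 at 30.6 and 21.5 against 44.1 and 34.1 (-0.70, SE 0.36, adjusted p = 0.296). No member was called (1 had an unadjusted p under 0.05), beside 6.81% of all genes, 3.82% higher and 2.98% lower. With the organoid as a replicate block 4 of 13 were lower in NR2F2-positive cells, HOXB5, HOXB6, HOXB8 and HOXB9, at adjusted p = 0.0288, 0.0155, 0.0176 and 0.0260. That fit called 2694 of 20689 genes, 1268 higher and 1426 lower. HOXB2 to HOXB4 had no call in either fit. The HOXA members of the CDH5 gate, 53 and 12 UMIs, lay at 3.63 and 0.953 CPM in NR2F2-positive and 0.691 and 0.160 in NR2F2-negative cells, with counts too low for the test.

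Members outside HOXB2 to HOXB9 were rare and unevenly placed, 12 of 30 having 20 or more UMIs in all cells. HOXD1, the most anterior gene of its cluster, was counted mostly in the endothelial gate, with 66 and 24 UMIs (2.05 and 0.85 CPM) in the CDH5 gate, 1 and 2 in PF4, 1 and 0 in PTPRC, 0 and 1 in HBZ and 0 in COL3A1 and MYH6. Its level in CDH5 was at least 37.7-fold higher than in COL3A1 and at least 15.6-fold higher than in MYH6, taking 3 counts over both organoids as the limit of a count of 0 (adjusted p = 0.000102 and 0.000512). HOXC4, at 67 and 45 UMIs (1.72 and 1.22 CPM) in COL3A1, had 1 and 2 UMIs in CDH5, a ratio of 29.7 (counting interval 9.92 to 146, adjusted p = 0.000245), and 0 in MYH6 (at least 15.4-fold, adjusted p = 0.000499). HOXB1 had 38 and 3 UMIs in COL3A1, against 1 and 0 in CDH5 (adjusted p = 0.0388). The ratio of levels was 32.7 (counting interval 5.54 to 1321), and organoid 33.10 alone had 3 against 0. This call was lost with gate thresholds doubled, with cells of several gates kept and with DESeq2.

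The remaining ones followed the stromal or the endothelial gate and were too low for the test between the 7 gates. Within the COL3A1 gate, HOXB13 and HOXC6 were tested between WT1- or TBX18-positive and LUM-high cells. Neither passed (log2 fold changes -2.16, SE 0.69, adjusted p = 0.102, and -2.41, SE 0.84, adjusted p = 0.132). HOXC5 had 17 and 7 UMIs in the COL3A1 gate and none in the other gates, HOXC6 had 22 and 22, and HOXB13, the most posterior HOXB gene, 41 and 20, with at most 2 per organoid elsewhere among the gates. HOXA13, a gene of limb and hindgut, had 28 and 6 UMIs in COL3A1. HOXC4 spans HOXC5 and overlaps HOXC6 on the same strand, so these 3 may share reads. HOXA3 and HOXA4 were found in CDH5 (20 and 5, 16 and 6 UMIs) and COL3A1 (15 and 3, 10 and 0), and HOXD8 in CDH5 (12 and 4).

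**Figure D5:**
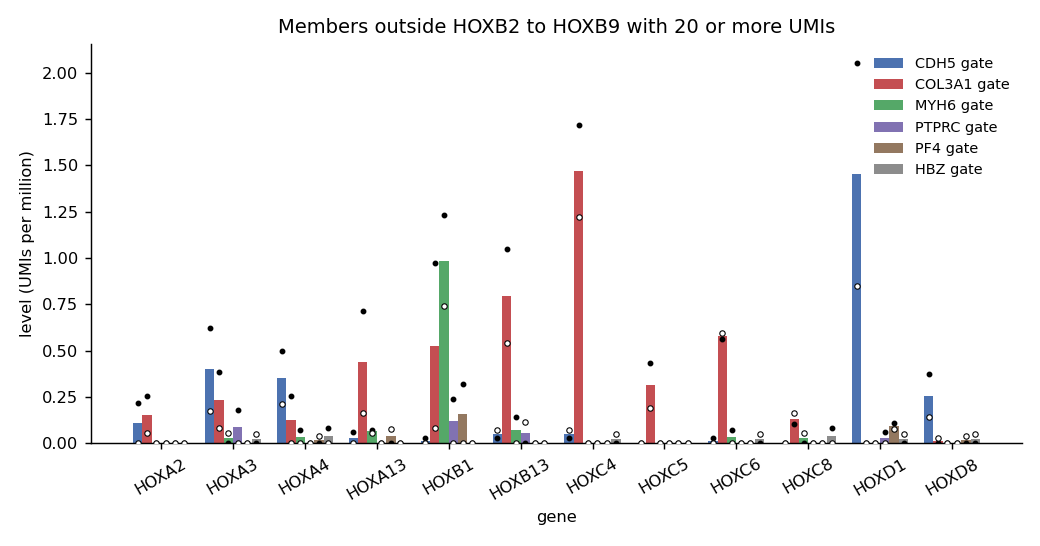
Levels of the 12 members outside HOXB2 to HOXB9 that had 20 or more UMIs, by gate (bars are means of both organoids; filled points organoid 32.7, open points 33.10), in CPM. HOXD1 stands in the CDH5 gate, HOXC4, HOXC5, HOXC6 and HOXB13 in the COL3A1 gate, and HOXB1 in the MYH6 and COL3A1 gates.

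Noncoding genes of the clusters also differed between gates. HAGLR, which is antisense to the start of HOXD1, was at 1.83 and 1.45 CPM in the CDH5 gate and at 0 UMIs in COL3A1 (adjusted p = 7.73e-06), and HAGLROS, from the same interval, was at 7.24 and 4.74 against 0.18 and 0.14 CPM. HOXB-AS1, antisense to the 5′ part of HOXB2 and the 3′ end of HOXB3, was at 60.0 and 59.5 CPM in the MYH6 gate, 17.1 and 11.5 in COL3A1, 9.56 and 10.3 in HBZ and 2.55 and 3.50 in CDH5 (log2 fold change CDH5 over MYH6 -4.30, SE 0.26, adjusted p = 3.16e-08). HOXB-AS3, which runs opposite HOXB3 to HOXB6, went the other way, at 3.99 and 3.87 CPM in MYH6 and 13.4 and 11.0 in CDH5 (1.65, SE 0.40, adjusted p = 0.00340). Of 17 such genes 5 were tested between these gates, with 4 higher in CDH5 and 1 lower, beside 27.9% and 27.5% of all genes.

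The TALE proteins, which bind DNA together with HOX proteins, were expressed in every gate. All 9 of the list were tested, and 1 was higher in CDH5 than in MYH6 and 5 were lower (median -1.70, all genes 0.0062), beside 27.9% and 27.5% of all genes and 55.4% in either direction. MEIS2 was at 1021 and 1124 CPM in MYH6 and 308 and 349 in CDH5 (log2 fold change -1.70, SE 0.16, adjusted p = 1.41e-06), and PKNOX2 at 33.8 and 52.8 CPM in COL3A1 and 1.40 and 2.30 in CDH5 (4.45, SE 0.31, adjusted p = 1.74e-07). The PF4 gate had 3 higher and 1 lower than CDH5, beside 27.6% and 25.3% of all genes. MEIS1, a partner of HOX proteins in megakaryocytes, was at 534 and 659 CPM against 135 and 159 (2.39, SE 0.36, adjusted p = 9.33e-05) and PBX4 at 57.0 and 67.3 against 0.65 and 1.66 (6.13, SE 0.34, adjusted p = 1.97e-08). In HBZ, MEIS1 was at 13.1 and 25.7 CPM (-2.18, SE 0.37, adjusted p = 0.000214).

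Of 17 known upstream regulators 13 were tested. Between CDH5 and MYH6, 6 were higher in CDH5 and 3 lower, beside 27.9% and 27.5% of all genes. As examples among the retinoic acid receptors, RARB was at 37.1 and 40.8 CPM in MYH6 and 9.36 and 8.85 in CDH5 (log2 fold change CDH5 over MYH6 -2.09, SE 0.23, adjusted p = 7.96e-06), and RARG at 4.64 and 3.98 against 33.4 and 31.7 (2.93, SE 0.20, adjusted p = 8.22e-08). CDX1, an activator of HOX clusters, was at 0.74 and 0.65 CPM in COL3A1 and at 0 and 0.035 in CDH5 (adjusted p = 0.000877), and CDX4 had no UMI in any gate. MLLT3, part of the machinery that releases paused polymerase, rose in HBZ over CDH5 (111 and 99.3 against 21.8 and 28.1 CPM, 2.80, SE 0.25, adjusted p = 7.66e-07). Of 9 transcription factors of heart, limb and foregut mesoderm, all 9 were higher in COL3A1 than in CDH5 (24.4% of all genes) and 6 were higher and 1 lower in COL3A1 than in MYH6 (18.2% and 19.0% of all genes), the lower one being TBX5, at 150 and 151 CPM in MYH6 and 26.5 and 35.3 in COL3A1.

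HOX UMIs were also counted per cell. After thinning each cell to 5000 UMIs, a HOX UMI was found in 82.2% (exact 95% binomial interval 80.5 to 83.9) and 75.5% (73.5 to 77.4) of CDH5-gate cells, 59.5% (57.5 to 61.4) and 44.1% (42.0 to 46.1) of COL3A1, 44.3% (41.0 to 47.5) and 34.3% (31.6 to 37.1) of MYH6, 39.9% (36.5 to 43.5) and 34.9% (30.2 to 39.9) of PTPRC, 32.6% (28.8 to 36.5) and 31.0% (28.9 to 33.1) of PF4 and 17.0% (13.9 to 20.4) and 14.8% (12.9 to 16.9) of HBZ cells. The AFP gate had 42.7% (31.8 to 54.1) of 82 cells and 20.0% (2.52 to 55.6) of 10. These intervals cover the sampling of cells within an organoid only and not the spread between organoids. In the COL3A1 gate, for example, the intervals of both organoids lay apart (57.5 to 61.4 and 42.0 to 46.1). The order of gates was not tested with the organoid as the replicate. The MYH6, PTPRC and PF4 intervals overlapped in organoid 33.10, where PTPRC lay above MYH6, unlike their summed levels. Without thinning the CDH5 values were 93.0% and 89.1% and the HBZ values 41.7% and 30.7%, at median depths of 13035 and 11314 and of 15507 and 11159 UMIs. Cells shallower than 5000 UMIs were left out, 219 and 282 in CDH5 and 84 and 225 in HBZ. No gate is known to lack HOX RNA, so how much of the HBZ value is free RNA was not tested. In the thinned CDH5 cells, 22.0% and 16.6% carried 3 or more different members, against 0.181% and 0.156% in HBZ.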

How the data were processed

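Single-cell RNA of 2 BG-HFOs was sequenced by the authors, 1 droplet library per organoid (10x Genomics, 3′ chemistry, stranded). The authors deposited counts of UMIs per gene and barcode, made with Cell Ranger 7.0.0 on GRCh38 with intronic reads and not normalized; their later removal of free RNA is not part of these counts. The members and gene lists were chosen with earlier results of these data known. Of the rows whose symbol matches the HOX rule, 1 is not reported here.

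Barcodes were required to have between 50 and 11000 detected genes and less than 30% of their UMIs from mitochondria, and were gated on raw UMIs; sub-gates required at least 1 UMI (NR2F2, MYB, C1QA or CD14), 2 (WT1 or TBX18) or 10 (LUM). Doublets were not called; cells of several gates were set aside. UMIs were summed per gate and organoid and tested with edgeR 4.0.16 (quasi-likelihood, TMM, filter on low counts, R 4.3.3), the 7 gates in 1 fit (21806 genes) and 6 sub-gates with 4 gates in a second (20689 genes). P-values were adjusted by Benjamini-Hochberg over all genes, with a threshold of 0.05. The standard error is the log2 fold change divided by the square root of F. CPM are UMIs per 1000000 of a gate. Where a group held 0 to 3 UMIs, a bound or a ratio with an exact counting interval is given instead of a fitted fold change. On simulated counts, 47 to 77 of 100 genes shifted by 1 log2 unit were found in each of the 10 comparisons. Of 100 shifted by 2, at least 95 were found, and 1.17% to 7.34% of calls were false. The simulation drew samples independently with a fixed spread. It changed only genes above a minimum expected count and left all others equal between the compared groups. In the data the gates of an organoid are paired, many genes differ and some members have few UMIs. These rates therefore need not hold for the HOX tests.

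Gates of 1 organoid come from the same culture and are paired by design, but the main fits treated them as independent. Deviations of same-organoid gates from their means correlated at -0.12 to 0.67 over 21 pairs and at 0.26 to 0.67 without the AFP gate (4829 genes), and the fit with the organoid as a replicate block was an alternative, as were DESeq2 1.42.0, no filter, other gate thresholds, cells of several gates, free RNA removal, cell depth, all barcodes and other thinning depths. The rule named the members with an adjusted p under 0.05, largest change first, and others as examples of a level; the text gives them by position in the cluster instead of by size. Coordinates are from GENCODE 44, matched by identifier for all 38 members.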

Additional observations from a re-analysis of the deposited data

Results flagged for a closer look

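HOX UMIs also occurred in cells that no comparison used. Cells of no gate held 219 CPM in organoid 32.7 and 159 in organoid 33.10, summed over the members, close to the level of all cells (211 and 146 CPM), at median depths of only 2962 and 4220 UMIs. Cells of several gates held 188 and 133 CPM. Their weighted paralog numbers were 4.93 ± 0.14 and 4.76 ± 0.12 (SD, n = 2), between those of the MYH6 and CDH5 gates. These values are given because the signal lies outside the compared cells; no group had enough organoids for a test of single outlying samples.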

How the results depend on the processing

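Of 58 member calls over the 10 comparisons, 45 held under every alternative that gave a value and none reversed. The number of called members stayed within 1.5 times except in the following comparisons. COL3A1 over CDH5 went from 7 of 11 tested members to 12 of 35 with no filter on low counts. The genes called in these fits were 10736 of 21806 and 10412 of 32654. AFP over COL3A1 went from 0 to 3 with the replicate block, 4 with no filter, 3 with gate thresholds halved and 3 with them doubled. It went to 2 with cells of several gates kept, 1 with free RNA removed, 4 with all barcodes and 4 with DESeq2. In that order 11, 35, 11, 13, 14, 11, 11 and 11 members were tested. The genes called were, for the first 4 settings, 4007 of 21806, 4042 of 32654, 3949 of 21385 and 4164 of 21626. For the last 4 they were 3742 of 22944, 3348 of 21707, 3972 of 21862 and 4026 of 21806. NR2F2-positive over NR2F2-negative went from 0 to 4 with the replicate block and 2 with no filter. The block tested 13 members and called 2694 of 20689 genes. Without the filter 31 members were tested and 2294 of 32358 genes called. The replicate block changed no call beyond those given beside the results. The ratio of summed CPM, CDH5 to HBZ, was 9.90. It was 10.6 with thresholds halved, 7.85 with them doubled, 5.93 with cells of several gates kept and 16.0 after free RNA removal. The posterior share in HBZ exceeded that in CDH5 by 8.02 percentage points, by 6.57 with thresholds doubled, 4.39 with cells of several gates and 13.1 after free RNA removal. The thinned share of cells with a HOX UMI was 63.0 points higher in CDH5 than in HBZ, 57.8 with cells of several gates and 49.5 at 2500 UMIs. The cause of these shifts was not tested. With 1 organoid left out, each gate has 1 sample and a member has a fold change without a test; the 58 called changes kept their sign except HOXB1 between WT1- or TBX18-positive and LUM-high cells, which was 0 in both groups of organoid 33.10. The counts of called members have no such value, and the other ratios ranged from 9.42 to 10.4, 7.48 to 8.56 and 60.7 to 65.3.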
